A study of Mus musculus with 6 samples.

Results

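A set of 10 genes of pulmonary surfactant and of the alveolar type 2 cell that makes it was followed in sorted cells of mouse small-cell lung cancer. They are the surfactant protein genes Sftpa1, Sftpd, Sftpb and Sftpc, and Napsa, Abca3, Lamp3, Lpcat1, Slc34a2 and Cxcl15. They were chosen by name, each from an array row annotated to that gene alone, and all 10 were measured, among 22179 genes in all. Each had a single such row, so no choice between rows was needed. The tumours arose in lungs of mice carrying conditional alleles of Rb, p53 and p130 after intratracheal adenoviral Cre, and the animals also carried a green fluorescent reporter of Hes1, which encodes a repressor of transcription that Notch signalling switches on. Cells from tumours pooled 5 to 6 months after Cre were sorted by fluorescence, and 3 samples of GFP-high cells and 3 samples of GFP-negative cells (also labelled negative or low) were hybridised to Affymetrix Mouse Gene 2.0 ST arrays. Both groups thus came from animals with the same alleles and the same reporter, and the comparison asks how Hes1-reporting cells of a tumour differ from the others. The labels speak both of pools from 3 mice and of a single mouse. They do not say whether replicates came from separate pools, so the p-values measure only the spread between these samples. The promoter that drove Cre and the mouse strain and age were not found among the sources used here.

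Alveolar type 2 cells line the air sacs and secrete surfactant, a film of phospholipid and protein that lowers surface tension. The hydrophobic proteins SP-B and SP-C are cut from larger precursors by proteases and spread the lipid, while the collectins SP-A and SP-D bind microbes. Lipid and the hydrophobic proteins are stored in lamellar bodies, organelles derived from lysosomes. The transcription factor NKX2-1 is known to activate surfactant protein genes together with FOXA and C/EBP factors, and club cells of the airway share some of these genes, among them Sftpb.

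Promoter sequence from RefSeq (build GRCm38.p6) was matched for 7 of the 10 genes, and the others are Sftpc, Sftpd and Napsa. The 250 bases before the gene start are shown for the 2 matched surfactant protein genes and for Lamp3 and Slc34a2, which differed most of the 10 between the groups. They are printed on the strand of the gene, with capitals marking exact matches to the words searched.
Sftpa1 promoter, chr14:41131538-41131787 (plus strand): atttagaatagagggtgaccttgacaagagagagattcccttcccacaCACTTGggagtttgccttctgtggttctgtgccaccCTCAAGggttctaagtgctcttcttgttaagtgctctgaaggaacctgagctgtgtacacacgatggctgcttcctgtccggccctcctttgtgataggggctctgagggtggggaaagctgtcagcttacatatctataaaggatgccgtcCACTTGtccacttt
Sftpb promoter, chr6:72304360-72304609 (plus strand): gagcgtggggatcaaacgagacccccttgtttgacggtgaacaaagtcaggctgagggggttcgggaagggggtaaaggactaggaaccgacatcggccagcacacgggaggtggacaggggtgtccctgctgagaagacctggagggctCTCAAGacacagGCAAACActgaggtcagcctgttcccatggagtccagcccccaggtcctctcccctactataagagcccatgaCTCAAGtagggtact
Lamp3 promoter, chr16:19706366-19706615 (minus strand): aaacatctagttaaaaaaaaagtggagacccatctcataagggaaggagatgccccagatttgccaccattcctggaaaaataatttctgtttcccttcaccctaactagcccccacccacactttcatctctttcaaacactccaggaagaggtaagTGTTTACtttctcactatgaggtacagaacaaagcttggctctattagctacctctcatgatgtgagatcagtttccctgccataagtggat
Slc34a2 promoter, chr5:53049103-53049352 (plus strand): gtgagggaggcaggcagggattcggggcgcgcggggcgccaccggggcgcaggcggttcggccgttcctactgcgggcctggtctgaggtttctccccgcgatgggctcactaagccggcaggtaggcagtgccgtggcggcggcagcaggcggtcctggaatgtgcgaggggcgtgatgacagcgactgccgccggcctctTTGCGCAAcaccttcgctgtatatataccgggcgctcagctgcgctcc
The words were searched on both strands. For NKX2-1 they were CTCAAG and the alternative CACTTG. For FOXA the word was TGTTTAC or its variant TGTTTGC, and also TATTTAC or its variant TATTTGC. For C/EBP the word was TTGCNNAA. Matches to different factors did not overlap. An NKX2-1 word stood in 2 of the 7 promoters, 3 times in Sftpa1 and 2 times in Sftpb, and in 22.6% of the 32851 promoters of the same length in the table. A FOXA word stood in 3 of the 7, those of Sftpb, Lamp3 and Cxcl15, and in 11.9% of all promoters. In Sftpb the FOXA word begins 88 bases before the gene start, close to the NKX2-1 word that begins at 100. A C/EBP word stood in Slc34a2 alone of the 7, beginning 48 bases before the gene start, and in 9.56% of all promoters. Such matches describe the letters of these windows and do not show binding.

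Values are log2 expression values, so a difference of 1 is a 2-fold difference in signal, and they are not comparable between genes because each gene has its own probes. Array values are listed as replicates 1, 2 and 3 of a group. Hes1 itself averaged 10.40 ± 0.11 in GFP-high cells and 6.85 ± 0.18 in GFP-negative cells (SD, n = 3 each). Arrays correlated at 0.987 to 0.991 within groups and at 0.918 to 0.940 between groups, taken across all genes, which are not independent replicates. The file holds no detection calls, so it is not known which values lie at background, where folds are compressed. In sorted cell populations a larger share of cells that express a gene and more RNA per cell cannot be told apart.

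All 10 genes were higher in GFP-high cells at an adjusted p under 0.05 (limma, adjusted over all genes tested), where 13.0% of all genes were higher and 17.0% lower. Their median log2 fold change was 3.998, against 0.01 over all genes, and the single values ran from 0.49 for Lpcat1 to 5.76 for Lamp3. In each of the 10 the lowest GFP-high array lay above the highest GFP-negative array, which held for 20.0% of all genes. Of the 10 genes 9 also had a log2 fold change of at least 1, as did 5.63% of all genes in that direction.

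**Figure D1:**
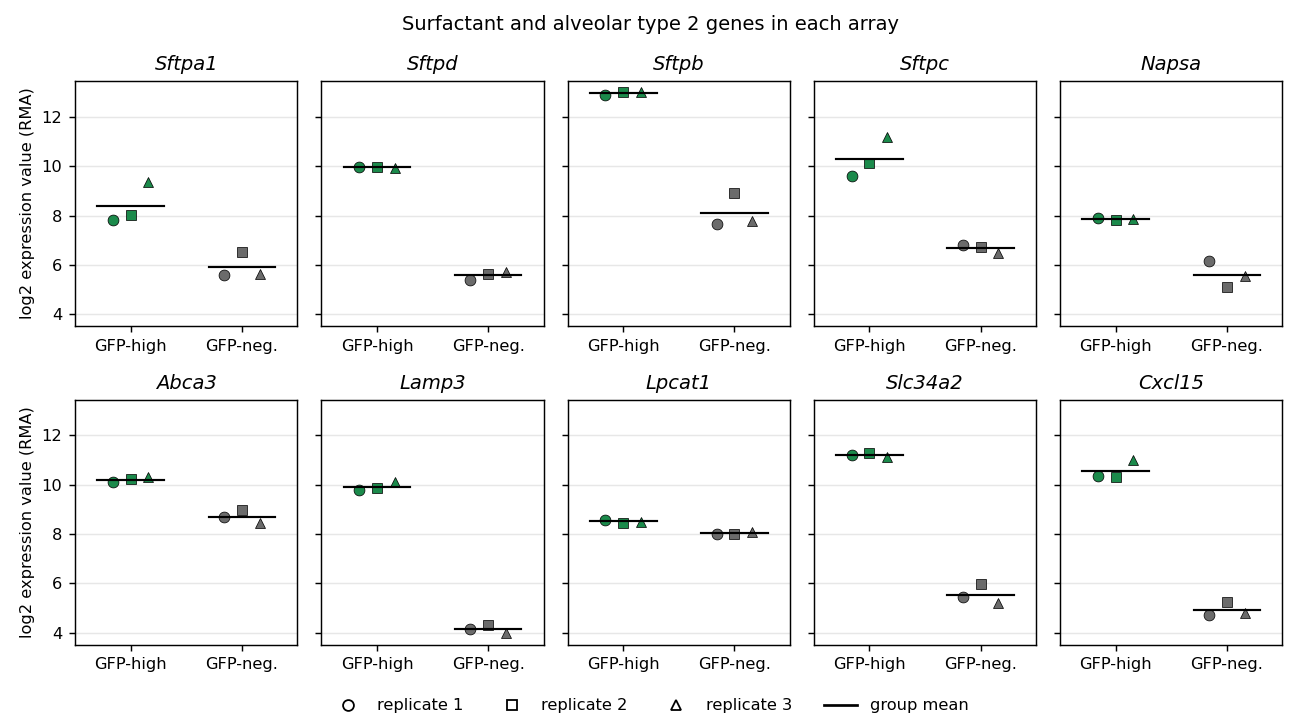
Log2 expression value (vertical axis) of each of the 10 genes in the 3 GFP-high arrays (green) and the 3 GFP-negative arrays (grey). Symbols mark the replicate number and lines the group mean. The groups do not overlap for any gene. GFP-high replicate 3 lies furthest above the other GFP-high arrays for Sftpa1 and Sftpc. GFP-negative replicate 2 lies furthest above the other GFP-negative arrays for Sftpb and Sftpa1.

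The collectin genes differed in how evenly they were raised. Sftpd, which encodes SP-D, read 9.95, 9.97 and 9.93 in GFP-high cells, against 5.40, 5.65 and 5.71 in GFP-negative cells. The GFP-high arrays were within 1.03-fold of each other, and Sftpd was 20.6-fold higher there (log2 fold change 4.36 ± 0.12 SE, n = 3 per group, adjusted p = 1.83e-07). Sftpa1, which encodes SP-A, read 7.80, 8.03 and 9.38 in GFP-high cells, against 5.58, 6.53 and 5.62 in GFP-negative cells. GFP-high replicate 3 and GFP-negative replicate 2 each stood above the rest of their group, and the GFP-high arrays spread over 2.97-fold. Sftpa1 was 5.62-fold higher in GFP-high cells (2.49 ± 0.41 SE, adjusted p = 0.00184), and without GFP-high replicate 3 it was 4.01-fold higher (2.00 ± 0.28 SE, adjusted p = 0.00138). The RefSeq table places Mbl1, the gene of another collectin, between Sftpa1 and Sftpd. Mbl1, looked up after these values were seen, read 4.65, 4.94 and 4.68 in GFP-high cells, against 4.58, 4.41 and 4.68 in GFP-negative cells, which overlap (log2 fold change 0.20 ± 0.13 SE, adjusted p = 0.311).

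The genes of the hydrophobic surfactant proteins also differed in evenness. Sftpb read 12.89, 12.99 and 13.00 in GFP-high cells, against 7.64, 8.92 and 7.78 in GFP-negative cells. The GFP-high arrays lay within 1.08-fold of each other, while GFP-negative replicate 2 was above its group. SP-B is the surfactant protein without which newborn mice cannot breathe, and its gene was 28.8-fold higher in GFP-high cells (4.85 ± 0.30 SE, adjusted p = 7.85e-06). Sftpc, whose product is the surfactant protein made by alveolar type 2 cells and not by club cells, read 9.61, 10.14 and 11.18 in GFP-high cells, against 6.81, 6.73 and 6.49 in GFP-negative cells. Here the GFP-high arrays spread over 2.97-fold, with replicate 3 on top, and the GFP-negative arrays lay close together. Sftpc was 12.4-fold higher in GFP-high cells (3.63 ± 0.34 SE, adjusted p = 8.81e-05), and 9.19-fold higher without GFP-high replicate 3 (3.20 ± 0.19 SE, adjusted p = 2.06e-05). Napsa encodes napsin A, an aspartic protease that takes part in cutting the SP-B precursor. It read 7.89, 7.82 and 7.88 in GFP-high cells, against 6.14, 5.12 and 5.55 in GFP-negative cells, and was 4.79-fold higher in GFP-high cells (2.26 ± 0.23 SE, adjusted p = 0.000133). Among the GFP-negative arrays Napsa was lowest in replicate 2, the array in which Sftpb and Sftpa1 were highest.

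Genes of the lamellar body and of surfactant lipid covered the whole range of differences among the 10. Lamp3, a membrane glycoprotein of lamellar bodies, read 9.80, 9.87 and 10.10 in GFP-high cells, against 4.17, 4.33 and 3.98 in GFP-negative cells. No other of the 10 genes had a wider gap between groups, and the difference was 54.3-fold (5.76 ± 0.14 SE, adjusted p = 1.83e-07). Abca3, the transporter that loads phospholipid into lamellar bodies, read 10.11, 10.21 and 10.29 in GFP-high cells, against 8.68, 8.98 and 8.45 in GFP-negative cells. It was 2.82-fold higher in GFP-high cells (1.50 ± 0.15 SE, adjusted p = 0.00013). Lpcat1, the acyltransferase that remodels phosphatidylcholine for surfactant, read 8.58, 8.47 and 8.50 in GFP-high cells, against 8.01, 7.98 and 8.09 in GFP-negative cells. The groups did not overlap, but the difference was only 1.40-fold (0.49 ± 0.11 SE, adjusted p = 0.0076), and Lpcat1 is the gene that misses a log2 fold change of 1.

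The other 2 genes encode a transporter and a chemokine of the air space. Slc34a2, the sodium phosphate cotransporter of the apical membrane of type 2 cells, read 11.21, 11.27 and 11.10 in GFP-high cells, against 5.46, 5.96 and 5.20 in GFP-negative cells. It was 50.3-fold higher in GFP-high cells (5.65 ± 0.19 SE, adjusted p = 3.28e-07), with GFP-negative replicate 2 the highest of its group. Cxcl15, known as lungkine, a neutrophil-attracting chemokine of lung epithelium, read 10.34, 10.31 and 11.01 in GFP-high cells, against 4.70, 5.25 and 4.80 in GFP-negative cells. It was 49.7-fold higher in GFP-high cells (5.63 ± 0.22 SE, adjusted p = 6.45e-07), with GFP-high replicate 3 on top.

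**Figure D2:**
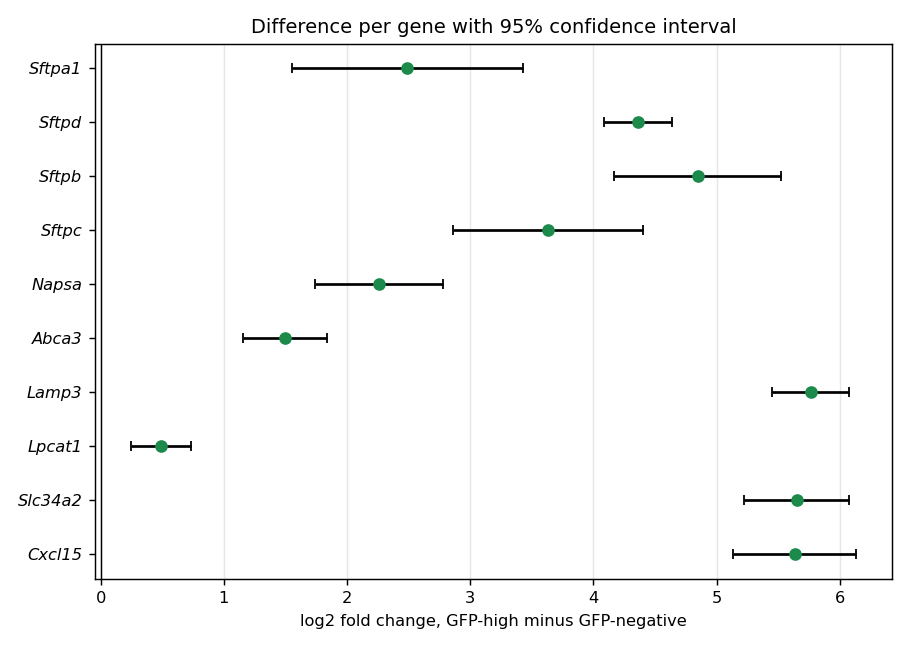
Log2 fold change of GFP-high minus GFP-negative (horizontal axis) for the 10 genes, as points with 95% confidence intervals from the moderated spread of limma. All intervals lie above 0; that of Lpcat1 reaches from 0.25 to 0.73 and that of Sftpa1, the widest, from 1.55 to 3.43.

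The GFP-high arrays were not alike for all 10 genes. Replicate 3 was the highest of them for 6 of the 10, and for 34.4% of all genes. In GFP-high replicate 3, Sftpa1 lay 1.46 above the mean of replicates 1 and 2 on the log2 scale (2.75-fold), and 0.0361% of all genes had a difference at least as large. Sftpc lay 1.30 above (2.46-fold, reached by 0.104% of all genes) and Cxcl15 lay 0.68 above (1.61-fold, reached by 2.15%). The remaining genes were within 0.27 of that mean, among them Sftpb (0.055), Sftpd (-0.03) and Slc34a2 (-0.13). The genes furthest above that mean thus include the collectin gene Sftpa1 and not Sftpd, and the hydrophobic protein gene Sftpc and not Sftpb. Of 17 other type 2 markers, 7 were highest in replicate 3 among the GFP-high arrays (41.2%, against 34.4% of all genes), with a median difference of 0.03. They ran from -0.42 for Sfta2 to 1.47 for the lysozyme gene Lyz1, with Chil1, a chitinase-like lectin, at 1.43 and Kcnj15 at -0.24 (chosen after their values were seen). Several lists of markers of other cells were also higher in that array. Relative to the GFP-negative mean, the median of the neuroendocrine markers was -1.74 in GFP-high replicate 3, against -2.49 and -2.74 in replicates 1 and 2. Replicate 3 was the highest GFP-high array for 7 of these 8 markers (median difference 0.83), and also for 7 of 8 fibroblast markers (0.50), 6 of 7 ciliated cell markers (0.40) and 6 of 8 macrophage markers (0.21). For the macrophage markers replicate 2 was the low array, with mean levels of 6.02, 5.46 and 6.11 in GFP-high replicates 1, 2 and 3. Fibroblast markers had low mean levels there of 5.48, 5.36 and 5.97, where the medians of the arrays were 5.30 to 5.43. Dcn stood above the other fibroblast markers, at 8.77, 8.86 and 10.26 in GFP-high cells. In GFP-negative cells Dcn read 10.41, 11.18 and 10.71. Replicate 3 was highest for 1 of 10 alveolar type 1 markers (-0.17). Club cell markers were level (median difference -0.007), and replicate 3 was highest for 1 of 8. Relative to the GFP-negative mean, their median was 4.71 in replicate 3 and 4.70 and 4.64 in replicates 1 and 2. A single array gives no test of such differences, and the part of other cells in them was not tested.

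The GFP-negative arrays differed in another way. Replicate 2 was the highest of the GFP-negative arrays for 6 of the 10 genes, and for 32.9% of all genes. Against the mean of replicates 1 and 3 it was higher by 1.21 for Sftpb, which 0.0812% of all genes reached, by 0.93 for Sftpa1 (0.311%), by 0.64 for Slc34a2 (1.38%), by 0.50 for Cxcl15 (2.87%) and by 0.42 for Abca3 (4.64%). Sftpc differed there by 0.08 and Sftpd by 0.09, and Napsa by -0.73. All 8 club cell markers were highest in the same array, with a median difference of 0.74, and in the other lists of markers of other cells at most 4 of 8 (neuroendocrine) were; Scgb3a1, a secretoglobin, read 7.07, 8.13 and 6.69 in GFP-negative cells. Macrophage markers had a median difference of -0.58 there. The part of other cells in the values of that array was not tested.

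**Figure D3:**
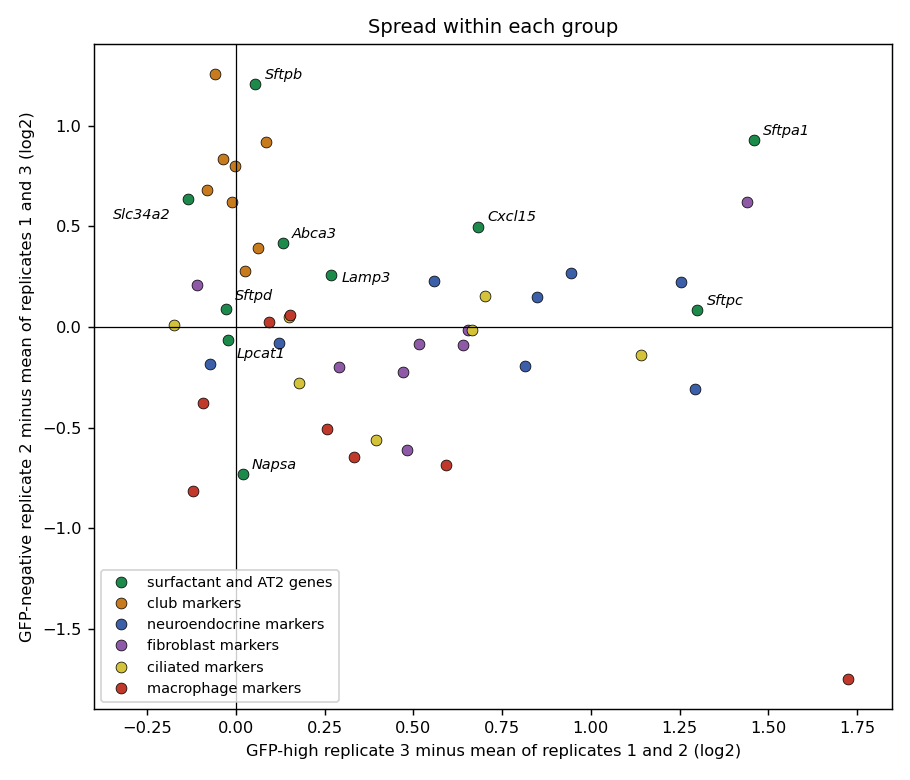
Differences inside each group on the log2 scale: GFP-high replicate 3 minus the mean of replicates 1 and 2 (horizontal axis) and GFP-negative replicate 2 minus the mean of replicates 1 and 3 (vertical axis), 1 point per gene. Sftpa1 and Sftpc stand to the right of 0, as do most neuroendocrine (blue) and fibroblast (purple) markers, and Sftpb stands high with the club markers (orange).

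Other genes of the surfactant pathway were read from 4 lists, and their counts stand against the 13.0% of all genes that were higher and the 17.0% that were lower. Of 17 further type 2 markers 11 were higher in GFP-high cells (64.7%), 1 was lower (5.88%) and 5 did not pass, with a median log2 fold change of 1.51. Dram1, a lysosomal membrane protein (4.18 ± 0.14 SE), complement component C5, Hc (3.96 ± 0.26 SE), the potassium channel Kcnj15 (3.56 ± 0.15 SE) and the secreted protein Egfl6 (3.05 ± 0.21 SE) led the list. The member that was lower was the fatty acid binding protein Fabp5 (-1.27 ± 0.17 SE), named after its value was seen. The 5 that did not pass were Etv5, Lyz1, Lyz2, Acoxl and Elovl1. Etv5, a transcription factor needed to maintain type 2 cells, read 5.76, 5.93 and 5.96 in GFP-high cells, against 5.41, 6.17 and 5.76 in GFP-negative cells, which overlap (0.11 ± 0.19 SE, adjusted p = 0.724). Lyz2, lysozyme of type 2 cells and macrophages, read 9.71, 8.89 and 10.23 in GFP-high cells, against 9.44, 8.76 and 9.30 in GFP-negative cells (0.45 ± 0.32 SE, adjusted p = 0.35). It passed without GFP-high replicate 2 (0.81, adjusted p = 0.0482).

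Of 26 measured genes of lamellar body formation, surfactant protein processing and secretion, 12 were higher (46.2%), 3 (Rab27a, Lyst and Vamp2) were lower (11.5%) and 11 did not pass (median 0.29). Ctsh encodes cathepsin H, a protease that acts on the SP-B and SP-C precursors, and read 10.38, 10.50 and 10.38 in GFP-high cells, against 5.54, 5.73 and 5.56 in GFP-negative cells. It was 28.0-fold higher in GFP-high cells (4.81 ± 0.11 SE, adjusted p = 1.83e-07). The ATP receptor P2ry2, which triggers surfactant release (3.30 ± 0.16 SE), the ubiquitin ligase Nedd4l, which directs the SP-C precursor (2.89 ± 0.17 SE), the phospholipid flippase Atp11a (2.47 ± 0.11 SE) and Adgrf5, a receptor that limits the surfactant pool (1.80 ± 0.24 SE), were higher as well. Pgc, a further protease linked to SP-B processing, was higher by 0.52 ± 0.15 SE (adjusted p = 0.0294). Its call was lost when GFP-high replicate 1 or 3 or GFP-negative replicate 1 or 2 was left out (adjusted p = 0.0735, 0.0895, 0.0968 and 0.0938). None of the 7 Hermansky-Pudlak genes in the list (Hps1, Hps3, Hps4, Hps5, Hps6, Ap3b1 and Ap3d1), which serve lysosome-related organelles in general, passed in limma (0 at an unadjusted p under 0.05). Their log2 fold changes ran from -0.08 to 0.22 for Ap3b1. In 2 of the 7, Ap3b1 and Ap3d1, every GFP-high array lay above every GFP-negative array, which held for 20.0% of all genes.

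Of 21 measured lipid synthesis genes 11 were higher (52.4%), 5 (Pcyt1a, Srebf2, Scap, Insig1 and Elovl6) were lower (23.8%) and 5 (Pcyt1b, Acaca, Lpin1, Pgs1 and Ptpmt1) did not pass (median 0.42). The desaturase Scd1 read 12.66, 12.64 and 12.75 in GFP-high cells, against 8.54, 8.74 and 8.51 in GFP-negative cells, a 17.0-fold difference (4.09 ± 0.11 SE, adjusted p = 1.83e-07). The glycerol phosphate acyltransferase Gpam (3.38 ± 0.13 SE), the malic enzyme Me1 (2.37 ± 0.14 SE) and fatty acid synthase, Fasn (1.42 ± 0.14 SE), were higher, and the elongase Elovl6 was lower (-2.50 ± 0.35 SE). Srebf1, a regulator of fatty acid synthesis, was higher by 0.47 ± 0.15 SE (adjusted p = 0.0437). That call was lost with each array centred on its median (adjusted p = 0.053) and without any one array other than GFP-negative replicate 1 (adjusted p from 0.0508 to 0.143).

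Of 20 transcription regulators linked to surfactant or to lung epithelium, proximal or distal, 10 were higher (50%). A further 4 (Foxa1, Foxa2, Sox2 and Elf3) were lower (20.0%) and 6 did not pass (list median 0.61). The share of regulators that were lower is near that of all genes. Nkx2-1 read 10.49, 10.52 and 10.30 in GFP-high cells, against 9.63, 9.49 and 9.84 in GFP-negative cells, a 1.73-fold difference (0.79 ± 0.13 SE, adjusted p = 0.00194). Cebpa (1.38 ± 0.17 SE, adjusted p = 0.000365) and Gata6 (2.61 ± 0.14 SE) were higher, as were the epithelial progenitor factor Sox9 (4.29 ± 0.17 SE), the epithelial ETS factor Elf5 (3.61 ± 0.15 SE) and Wwtr1, the coactivator TAZ (3.56 ± 0.14 SE). Foxa2 read 8.62, 8.80 and 8.86 in GFP-high cells, against 9.13, 9.53 and 9.25 in GFP-negative cells, and was lower (-0.54 ± 0.14 SE, adjusted p = 0.0168). Without GFP-high replicate 1 or GFP-negative replicate 2 its adjusted p was 0.0645 and 0.0507.

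Markers of other cells did not all go the same way. Their counts also stand against the 13.0% of all genes that were higher and the 17.0% that were lower. Alveolar type 1 markers were higher in 9 of 10, all but Igfbp2 (median 1.56; mean level 8.47 to 8.72 in GFP-high cells and 6.55 to 6.75 in GFP-negative cells). Club cell markers were higher in 7 of 8, all but Aldh1a1 (median 4.68; mean level 12.15 to 12.37 in GFP-high cells and 8.08 to 8.89 in GFP-negative cells). Neuroendocrine markers, which define small-cell lung cancer, were lower in 7 of 8, all but Neurod1 (median -2.34). Their mean level was 6.92 to 7.77 in GFP-high cells and 9.18 to 9.24 in GFP-negative cells. Of 8 macrophage markers none passed in limma (0 at an unadjusted p under 0.05; mean level 5.46 to 6.11 in GFP-high cells and 5.49 to 6.13 in GFP-negative cells). Of 8 fibroblast markers Dcn was lower and 7 did not pass. Of 8 endothelial markers Kdr was higher and Vwf lower (12.5% each). Of 7 leukocyte markers Lcp1 was higher and Coro1a lower (14.3% each). The shares in both lists are near those of all genes. Of 7 ciliated cell markers Dynlrb2 was higher and Tppp3 and Rsph1 were lower, and the 1 erythroid marker measured, Slc4a1, did not pass. What these cell types contribute to the surfactant genes was not tested.

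**Figure D4:**
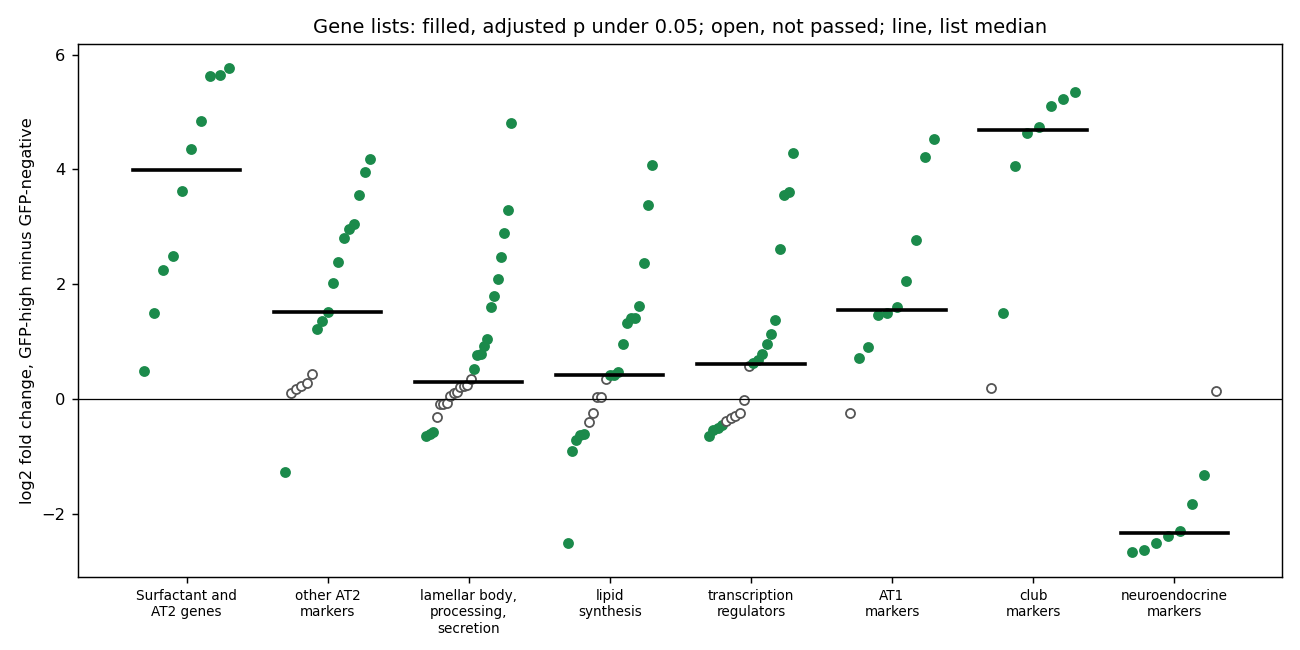
Log2 fold change of GFP-high minus GFP-negative (vertical axis) for every measured gene of 8 lists, 1 point per gene, filled where the adjusted p is under 0.05; lines are list medians. The 10 surfactant and type 2 genes (AT2) are all above 0 with a median of 3.998, near the club markers at 4.68. The lists of lamellar body, lipid and regulator genes straddle 0. Fabp5 of the other type 2 markers and Igfbp2 of the type 1 markers (AT1) lie below 0, and Neurod1 of the neuroendocrine markers lies above it.

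The genes outside the 10 whose profile over the 6 arrays lay nearest to the median profile of the 10 were Tlr5, the ephrin ligand Efna1, Scd1, the peroxidase Gpx8 and the matricellular protein Sparc. Likeness was measured as the root mean square distance of values taken from each gene's GFP-negative mean, which was 0.17, 0.20, 0.22, 0.23 and 0.23 log2 units in that order. Tlr5, the flagellin receptor, read 9.86, 9.85 and 10.14 in GFP-high cells, against 5.98, 6.28 and 5.93 in GFP-negative cells. The median profile lay 3.65, 3.92 and 4.42 above the GFP-negative level in the GFP-high arrays. It was taken array by array, so its rise to replicate 3 does not describe each gene. Taken gene by gene, replicate 3 of the 10 differed from the mean of replicates 1 and 2 by a median of 0.09.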

How the data were processed

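Total RNA from 3 GFP-high and 3 GFP-negative samples was measured on Affymetrix Mouse Gene 2.0 ST arrays. The authors deposited RMA values on a log2 scale, per the submitters' processing notes. No version of RMA is stated in the sources used here. Because RMA gives all arrays a like distribution, a change common to most genes is hidden. Array medians were 5.30 to 5.43. Of 41344 rows, 23520 were annotated to 1 gene, 1814 to several and 16010 to none in the platform annotation. Each of 22179 genes was represented by its single-gene row with the highest mean, and 0 columns belonged to other samples. Groups were taken from the sample titles. GFP-high was compared with GFP-negative with limma 3.58.1 in R 4.3.3 (lmFit and eBayes, no block, 4 residual and 4.50 prior degrees of freedom), two-sided, with Benjamini-Hochberg adjustment over all genes. The method was tested on simulated data. The number of arrays limits the precision.

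The 10 genes and the 13 other lists were chosen with earlier results of these data known; the other lists name 163 genes, counting repeats, of which 149 had a row and 14 are not analysed here. The genes named are the 10 members, the 4 largest changes of each pathway list, 11 regulators and markers fixed by name (Ctsh and Scd1 among them also fall under the first part), Hes1 and the 5 nearest profiles; all others, among them genes named beside a count of 5 or fewer, were chosen after their values were seen. Promoters came from RefSeq (GRCm38.p6). Samples with the same replicate number deviated together by a correlation of 0.11, -0.03 and 0.00 for replicates 1, 2 and 3. These correlations are taken across all genes and cannot settle whether the numbers pair samples. The main comparison did not pair them. Alternatives were quantile normalization, centring arrays on their medians, a filter that drops the lowest 30% of genes, a gene's mean over its rows, every row on its own, trend and robust settings, array weights, a replicate block, leaving out each array, and a minimum log2 fold change of 1. Tables and figures were made with Python 3.11.15, pandas 2.3.3, numpy 2.4.6 and matplotlib 3.10.9.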

Additional observations from a re-analysis of the deposited data

How the results depend on the processing

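All 10 genes kept their direction and their call under every alternative run, except that Lpcat1 (0.49) does not reach a minimum log2 fold change of 1. Over the alternatives the highest adjusted p was 0.034, for Lpcat1, and Sftpa1 had the widest range of log2 fold changes, from 2.00 to 2.80. With the replicate number as a block, a pairing that the labels do not state, all 10 members stayed called. The genes called over the whole table then numbered 6172, against 6661 without the block. Leaving out 1 array at a time gave 5408 to 6116 genes called. With a minimum log2 fold change of 1 the counts were 2584 genes over the whole table, 8 lamellar body and processing genes, 8 lipid synthesis genes and 6 regulators, against 15, 16 and 14 called in those lists without it. Etv5, which was not called, ranged from -0.077 without GFP-negative replicate 1 to 0.30 without GFP-negative replicate 2. Among 30 other named genes, 402 of 420 values kept direction and side of the threshold. The 3 arrays per group and the lack of detection calls limit what can be said of genes near background.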

Other observations

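None of the macrophage markers passed the test between the groups, and they shared a pattern across replicate numbers. In 6 of 8 (Cd68, Chil3, Mrc1, Adgre1, Itgax and Fabp4) replicate 2 was the lowest array in both groups, as in 13.0% of all genes, a pattern noticed after the values were seen. Chil3, a chitinase-like protein of lung macrophages, read 8.91, 7.14 and 9.75 in GFP-high cells, against 9.42, 7.65 and 9.37 in GFP-negative cells. Lyz2 had the same low replicate 2 in both groups. Of the 10 surfactant and type 2 genes, 2 had it (Napsa and Lpcat1), a share of 20.0% that is near the 13.0% of all genes.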
